A study of Homo sapiens with 21 samples.

Results

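Lysine acetylation of histones is set by enzymes that add the mark, enzymes that remove it and proteins that read it, and the RNA of 40 genes of this system was followed in PC-9 cells with low and high EGFR expression. The genes were taken by name from the 20111 genes listed. They comprised 4 class I, 4 class IIa, 2 class IIb and 1 class IV histone deacetylases (HDACs), 7 sirtuins, 10 histone acetyltransferases, 2 acetyl-lysine readers of the BET family and 10 subunits of corepressor complexes. All 40 were listed in both experiments. A gene was tested where it reached at least 1 FPKM (fragments scaled by transcript length and by the mapped fragments of the library) in at least 3 libraries of an experiment, which 38 members did in the untreated cells and 39 in the drug experiment. KAT2B was not tested in the first and SIRT4 in neither.

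PC-9 is a human lung adenocarcinoma line that carries an activating EGFR deletion in all groups, parental cells included. EGFR-low and EGFR-high cells were obtained from it by 6 rounds of flow sorting for the 5 to 10% of cells with the least or the most EGFR, so each is 1 sorted population of 1 line. In the untreated experiment, unsorted parental, EGFR-low and EGFR-high cells were collected 24 h after seeding. In the drug experiment, EGFR-low and EGFR-high cells received DMSO, the vehicle, or 1 µM vorinostat (SAHA) for 72 h, starting 24 h after seeding. Each of the 7 groups had 3 libraries of polyadenylated RNA. The labels of the 21 libraries give the deletion a last residue that rises by 1 from each library to the next, and these were not read as different alleles.

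HDACs of classes I, II and IV are zinc-dependent enzymes that remove acetyl groups from lysines, whereas the sirtuins need NAD+. HDAC1 and HDAC2 act inside the NuRD, SIN3 and CoREST complexes and HDAC3 inside the NCoR complex, where subunits such as CHD4, SIN3A, RCOR1 and NCOR1 hold the enzyme, remodel nucleosomes or bring the complex to chromatin. Acetyltransferases such as EP300, CREBBP and KAT2A write the mark, and BET proteins bind it at active promoters and enhancers. Vorinostat blocks zinc-dependent HDACs, those of classes I and IIb above all, and does not act on the sirtuins.

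EGFR RNA followed the labels in both experiments. In untreated cells it lay between 26.5 and 60.6 FPKM in EGFR-low, 160.5 and 269 in EGFR-high and 120.1 and 261 in parental libraries. With DMSO it was 17.7 to 43.3 in EGFR-low and 83.3 to 152 in EGFR-high cells, and with vorinostat 16.1 to 19.7 and 101 to 207. The epithelial markers EPCAM, KRT7, KRT8, KRT18, KRT19 and CDH1 were all expressed, with a sum of 1552 to 4045 FPKM per library. Of the leukocyte, endothelial and fibroblast markers CD68, CD14, CDH5 and COL1A1 reached the detection level, and the summed level of each list was at most 40.0, 8.30 and 5.88 FPKM. Below that level, the leukocyte markers PTPRC and CD3E were highest in EGFR-low DMSO replicate 1 (0.805 and 0.937 FPKM). Next came EGFR-high DMSO replicate 3 (0.20 and 0.29), and elsewhere both were at most 0.0524. The reason was not tested. RNA from fewer cells of a type and less RNA per cell cannot be told apart in bulk samples. Read depth is unknown, because the files hold normalized values.

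Several libraries stood apart. In the drug experiment the first principal component separated EGFR-low from EGFR-high cells and held 82.5% of the variance, and EGFR-low DMSO replicate 1 (25.6) and EGFR-high DMSO replicate 3 (-26.3) lay between the other libraries of the lines, which were at 61.6 to 66.7 and -67.2 to -59.4. Vorinostat replicate 1 of both lines lay apart on the second component (6.53%) and had the highest shares of mitochondrial transcripts, 22.2% and 24.2% against 7.27 to 18.6% in the other 10. In the untreated experiment, replicate 2 was the lowest library of all 3 groups for 14 of the 38 members (36.8%), against 27.7% of all genes tested. Counts of members that passed are given with and without these libraries. The vorinostat and DMSO groups also did not separate by CDKN1A and H1F0, genes whose RNA is known to rise with HDAC inhibitors. CDKN1A was at 21.7, 1.79 and 3.25 FPKM in EGFR-high cells with vorinostat against 3.62, 3.17 and 8.93 with DMSO, and H1F0 in EGFR-low cells at 650.5, 488.5 and 614 against 534.5, 490.2 and 637. The EGFR-low DMSO libraries were already high for both genes, with means of 554 FPKM for H1F0 and 18.7 for CDKN1A. In EGFR-high DMSO libraries the means were 247 and 5.24. In untreated EGFR-low cells, which were normalized separately, they were 72.1 and 3.55. What lies behind this was not tested. The treatment labels of the drug experiment are open to doubt, and whether each is right was not tested.

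The highest RNA levels among the members belonged to a small set of enzymes and histone-binding subunits. In untreated cells HAT1, which acetylates newly made histone H4, averaged 179 FPKM over the 9 libraries and ranged from 123 to 222. HDAC2 averaged 150.4 (94.4 to 234), the histone chaperone RBBP4 107 (94.5 to 133), HDAC1 97.2 (59.3 to 133) and RBBP7 91.0 (75.9 to 116). These ranges overlapped from each gene to the next, so the order of neighbours among the top 5 was within the spread of the libraries. HAT1 was above RBBP4, HDAC1 and RBBP7 within each of the 9 libraries. At the other end, SIRT4, a mitochondrial sirtuin, averaged 0.35 FPKM, KAT2B 0.59 and HDAC5 1.06. FPKM is a value per transcript length, which allows levels to be set side by side between genes within an experiment.

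**Figure D1:**
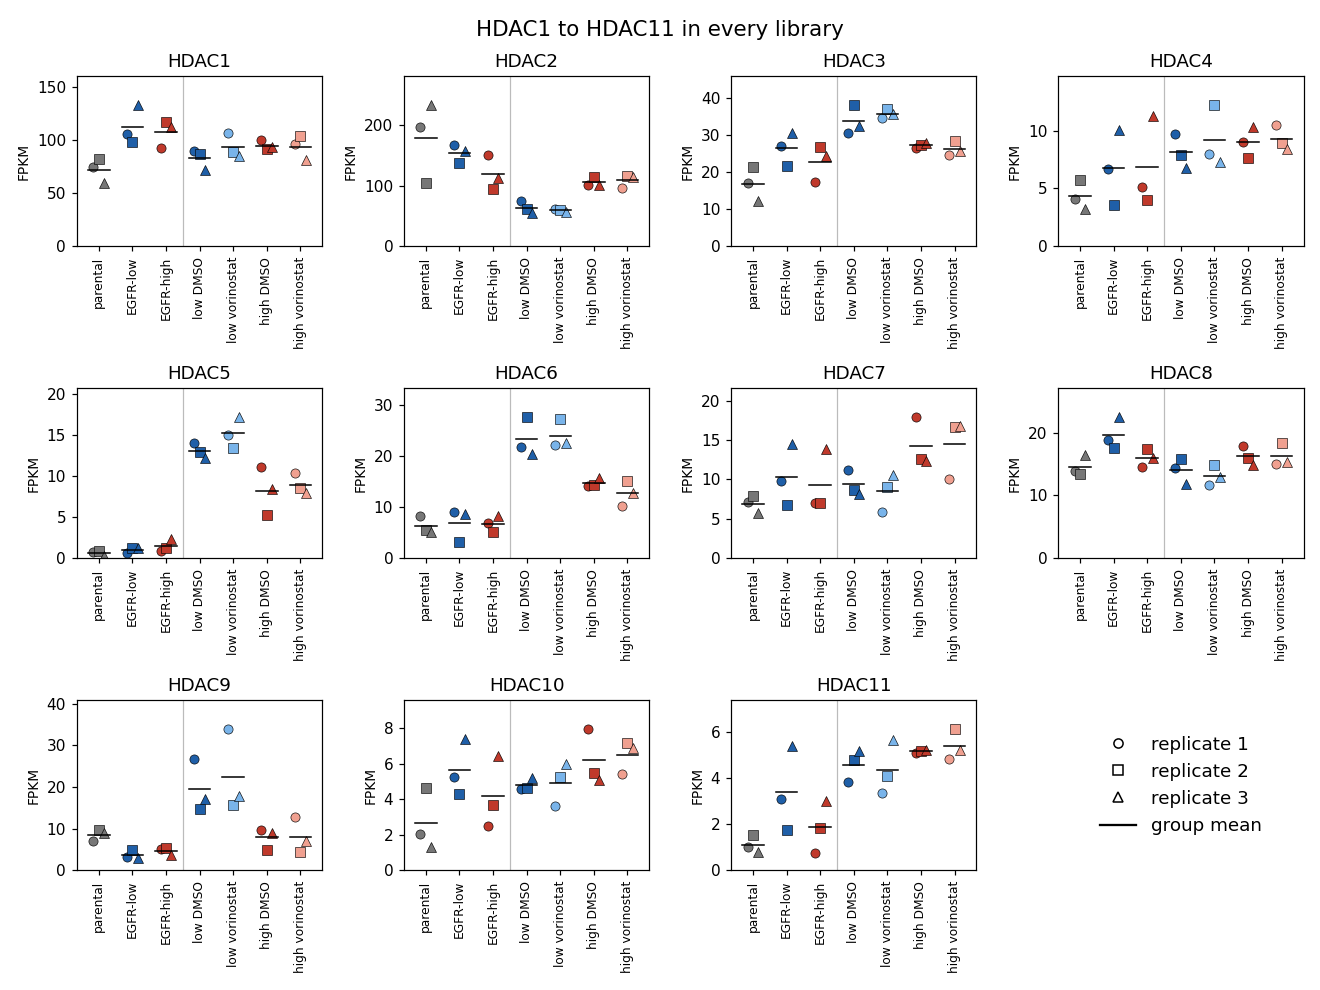
RNA level (FPKM, linear axis from 0, 1 panel a gene) of HDAC1 to HDAC11 in each of the 21 libraries, by group, with a marker for each replicate number and a bar for the group mean. HDAC1 and HDAC2 lie above the other 9 genes in every group, and HDAC5 and HDAC6 lie higher in the drug experiment, which was normalized separately, than in the untreated one.

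HDAC1 and HDAC2 were the most abundant of the 11 zinc-dependent HDACs in every group. Class I enzymes made up 89.9% ± 3.42 (SD, n = 3) of the summed FPKM of HDAC1 to HDAC11 in parental, 89.4% ± 2.09 in EGFR-low and 88.4% ± 3.47 in EGFR-high untreated cells, which overlapped. In the drug experiment the share was 70.1% ± 1.1 in EGFR-low and 78.8% ± 2.67 in EGFR-high cells with DMSO, and 69.4% ± 0.753 and 78.9% ± 0.908 with vorinostat. Without the libraries that stood apart it lay between 69.5 and 71.4% and between 76.6 and 81.8% with DMSO, and between 68.6 and 69.8% and between 78.4 and 80.0% with vorinostat. Across the separately normalized tables, HDAC5, HDAC6 and SIRT6 were higher in all 12 drug experiment libraries than in all 9 untreated ones, and HAT1 was lower. These 4 of 39 genes (10.3%) stand beside 9.1% of all 12423 genes compared, and the difference between experiments cannot be told apart from their separate processing. The drug experiment order was led by HDAC1 (91.0 FPKM), HDAC2 (84.3) and RBBP4 (78.7), and SIRT4 (0.60) and KAT2B (0.98) were again lowest.

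Promoter sequence was examined for what the members share beyond function, in RefSeq windows of 300 bases around the start sites on GRCh38.p14. For 36 members 61 windows were found, and HDAC5, SIRT7, KAT6A and KAT8 had none. The windows were searched on both strands for GGGCGG (a GC box), CCAAT and TATAAA, none of which overlaps another in its letters. The GC box was in 63.9% of the member windows and in 45% of all 35116 windows, CCAAT in 32.8% and 34.6%, and TATAAA in 4.92% and 11.5%, with a median GC content of 68.7% against 58.7%. All windows belong to 27305 genes, whether expressed in these cells or not, and no share over the tested genes was computed. A gene with several windows was counted once for each. The windows of 3 genes are printed as examples of members that differed between the sorted lines under every alternative tried in the drug experiment. These genes are HDAC2 and CHD4, which share the NuRD complex and were lower in EGFR-low cells, and the mitochondrial deacetylase SIRT3, which was higher. SIN3B, HAT1, MTA1, HDAC6 and KAT6A also differed under every alternative and are not printed. No share of all genes passing every alternative was computed. The printed windows run 5′ to 3′ on the gene's strand, with GC boxes in capitals.
HDAC2 (chr6:113971099-113971398, minus strand): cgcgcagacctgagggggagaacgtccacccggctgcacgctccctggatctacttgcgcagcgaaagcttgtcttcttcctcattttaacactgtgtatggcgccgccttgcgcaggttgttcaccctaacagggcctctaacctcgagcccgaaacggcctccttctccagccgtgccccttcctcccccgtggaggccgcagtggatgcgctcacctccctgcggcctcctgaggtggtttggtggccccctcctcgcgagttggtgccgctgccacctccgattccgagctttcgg
CHD4 (chr12:6606402-6606701, minus strand): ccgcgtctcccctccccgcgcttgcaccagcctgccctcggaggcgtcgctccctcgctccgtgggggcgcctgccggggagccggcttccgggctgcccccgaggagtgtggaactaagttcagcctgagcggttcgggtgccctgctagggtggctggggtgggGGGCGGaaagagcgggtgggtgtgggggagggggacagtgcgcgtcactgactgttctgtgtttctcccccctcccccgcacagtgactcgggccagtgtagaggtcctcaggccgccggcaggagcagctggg
SIRT3 (chr11:236882-237181, minus strand): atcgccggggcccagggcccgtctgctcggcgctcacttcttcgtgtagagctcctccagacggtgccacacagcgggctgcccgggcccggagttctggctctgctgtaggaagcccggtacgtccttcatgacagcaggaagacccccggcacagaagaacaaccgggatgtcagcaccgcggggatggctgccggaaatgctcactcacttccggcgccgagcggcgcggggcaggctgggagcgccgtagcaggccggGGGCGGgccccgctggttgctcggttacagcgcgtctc
The HDAC2 window had 64% GC, 24 CpG dinucleotides and no GC box by these letters. CHD4 had 71.7% GC and 1 GC box, and SIRT3 69.3% GC, 31 CpG dinucleotides and 1 GC box. With 3 genes picked from a longer list, how the motifs relate to the direction of the differences was not tested.

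Without drug, no acetylation gene passed between EGFR-low and EGFR-high cells as deposited. None of the 38 members passed an adjusted p of 0.05 (limma on log2(FPKM + 1), Benjamini-Hochberg over 11305 genes), and the lowest adjusted p was 0.321, for SIRT2. Of all genes tested 3.81% passed. At an unadjusted p of 0.05 the counts were 1 member and 1529 genes. The median log2 difference was 0.0076 over the members and -0.029 over all genes, and the median size of a difference was 0.18 and 0.25. The p-values measure the spread between the libraries of a group, which the study's methods describe as independent experiments at different times.

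HDAC1, HDAC2 and HDAC3 overlapped between the sorted lines. HDAC1 stood at 106, 98.2 and 133 FPKM in EGFR-low, 92.8, 117 and 112 in EGFR-high and 74.2, 82.3 and 59.3 in parental cells. The sorted lines overlapped each other and both lay above the parental cells. EGFR-low minus EGFR-high was 0.059 on the log2(FPKM + 1) scale (95% confidence interval -0.48 to 0.60, limma adjusted p = 0.975), against parental cells it was 0.64 in EGFR-low (SE 0.25, limma adjusted p = 0.263) and 0.58 in EGFR-high (SE 0.25, limma adjusted p = 0.507). For HDAC2 the values were 168, 136.5 and 158 in EGFR-low, 151, 94.4 and 113 in EGFR-high and 196, 104 and 234 in parental cells, with overlap throughout. Its EGFR-low minus EGFR-high difference of 0.39 had an interval of -0.34 to 1.11 (limma adjusted p = 0.751). HDAC3, the enzyme of the NCoR complex, had 27.1, 21.7 and 30.5 FPKM in EGFR-low and 17.4, 26.9 and 24.3 in EGFR-high cells, a difference of 0.21 (-0.39 to 0.81, limma adjusted p = 0.882). HDAC4 (0.0093, interval -0.86 to 0.88) and HDAC6, a cytoplasmic deacetylase of tubulin (-0.051, -0.82 to 0.71), were as close. The interval for HDAC2 does not exclude a difference of up to 1.11 log2 units.

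Few members had groups without overlap. Between EGFR-low and EGFR-high cells, 3 members were apart, HDAC8 and SIRT2 higher and MTA3 lower in EGFR-low, against 20.6% of all genes. SIRT2, a mostly cytoplasmic sirtuin, was at 7.42, 6.95 and 9.68 FPKM in EGFR-low, 2.86, 4.35 and 6.10 in EGFR-high and 3.45, 4.69 and 1.62 in parental cells, so every EGFR-low library was the higher. The difference was 0.76 (SE 0.32, limma adjusted p = 0.321). MTA3, a NuRD subunit, had 37.4, 35.8 and 28.7 FPKM in EGFR-low against 45.4, 49.7 and 46.8 in EGFR-high cells, a difference of -0.48 that did not pass either (limma adjusted p = 0.4).

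Against parental cells no member passed in EGFR-low cells, where 1.6% of all genes did, or in EGFR-high cells, where 0.0708% did. Unadjusted p-values under 0.05 numbered 7 members and 1668 genes in EGFR-low, and 3 members and 1093 genes in EGFR-high cells. Groups were apart for 7 members in EGFR-low cells (HDAC1, HDAC3, HDAC8, HDAC11 and SIRT2 higher, HDAC9 and MTA3 lower), beside 17.1% of all genes, and for 6 in EGFR-high cells (HDAC1, KAT2A, KAT5 and KAT8 higher, HDAC9 and HAT1 lower), beside 16.2%. HDAC9, a class IIa enzyme, came nearest to the threshold. It was at 7.04, 9.61 and 8.85 FPKM in parental, 3.29, 4.83 and 2.84 in EGFR-low and 5.16, 5.26 and 3.78 in EGFR-high cells. Parental libraries were the highest of all 9. The differences were -1.04 (SE 0.24, limma adjusted p = 0.0643) and -0.73 (SE 0.24, limma adjusted p = 0.507), and the first passed when the replicate number was a block (adjusted p = 0.021) and, as the only member to do so, without EGFR-low replicate 2. Without replicate 2 of all 3 groups, HDAC9 (-1.13), SIRT2 (1.47) and SIRT7 (1.58) passed in EGFR-low against parental cells, beside 8.22% of all genes, and 0 members passed in EGFR-high cells.

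**Figure D2:**
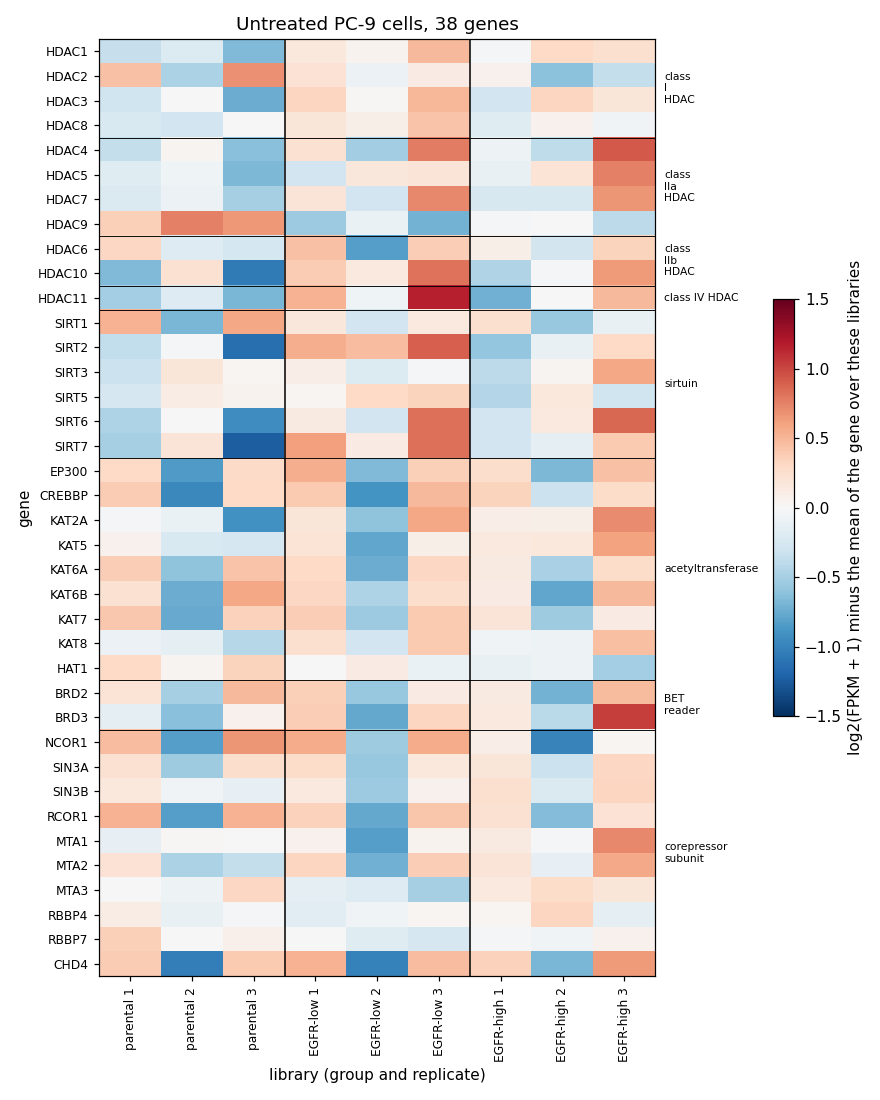
Log2(FPKM + 1) minus the gene's mean over the 9 untreated libraries, for the 38 members tested, ordered by role. Replicate 2 of each group is the low library for large transcripts such as CHD4, EP300 and NCOR1, and HDAC8 and SIRT2 are the genes with all EGFR-low libraries above all EGFR-high ones.

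Within the untreated groups the members varied most with replicate 2. CHD4, the helicase of NuRD, was at 25.5, 26.0 and 32.8 FPKM in replicate 2 of the parental, EGFR-low and EGFR-high groups, against 68.0 to 83.7 in the other 6 libraries. The 14 members with this pattern also included EP300, CREBBP, KAT6A, KAT6B, KAT7, BRD2, BRD3, NCOR1, SIN3A, RCOR1, MTA2, SIRT1 and HDAC2. EGFR-low replicate 2 was the lowest of its group for 31 of 38 members (81.6%), against 58.9% of all genes. The deviation of replicate 2 from its group means went with transcript length, with Pearson r = -0.50 over 38 members and -0.42 over 10718 genes, which come from the same libraries. What part this has in the differences was not tested. With the trend on GC content and length removed, 1 member passed between EGFR-low and EGFR-high cells, HDAC11 (0.78, limma adjusted p = 0.0329), beside 8.43% of all genes. The HDAC11 values as deposited were 3.09, 1.73 and 5.39 FPKM in EGFR-low against 0.74, 1.84 and 3.01 in EGFR-high cells, which overlapped. With the replicate block the count stayed at 0 members, while calls over all genes rose from 431 to 965. With the block and that trend removed together, 5 members passed, all higher in EGFR-low cells (HDAC10, HDAC11, NCOR1, SIRT2 and SIRT5), beside 22.6% of all genes. Without replicate 2 of all 3 groups 0 members passed between the sorted lines, beside 3.77% of all genes.

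In the drug experiment, the members did differ between the lines, in both directions. With DMSO, 15 of 39 members passed (38.5%), 8 higher and 7 lower in EGFR-low cells, where 51.8% of all 12236 genes passed, 31.1% higher and 20.7% lower. With vorinostat, 17 of 39 passed (43.6%), 10 higher and 7 lower, where 59% of all genes passed, 36.2% higher and 22.8% lower. Their shares of calls lay below those of the background in both conditions and directions. Groups were apart for 25 members with DMSO and 20 with vorinostat, beside 69.3% and 60.8% of all genes. The median size of a difference was 0.33 log2 units over the members and 0.47 over all genes with DMSO, and 0.35 and 0.54 with vorinostat. In all, 14 members passed in both, each in the same direction (14 of 15 and 14 of 17). The share of all genes that did so was not computed. Both comparisons use separate libraries of the same sorted populations in a shared fit, so they are not independent experiments.

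The median of all genes was itself shifted upwards in EGFR-low cells, by 0.12 with DMSO and 0.16 with vorinostat, while the members' medians were -0.025 and -0.021. Median-of-ratios scaling, which brought the median of all genes to 0.0069 and 0.0028, gave 5 members higher and 9 lower with DMSO and 8 higher and 12 lower with vorinostat. Of all genes 52.3% and 59.1% passed under it. Relative to that scaling HDAC3, HDAC5 and SIRT6 no longer passed with DMSO. No difference that had passed changed its sign.

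Among the class I enzymes, HDAC2 was lower and HDAC3 higher in EGFR-low cells, and HDAC1 and HDAC8 did not pass. HDAC2 was at 73.8, 61.3 and 55.6 FPKM in EGFR-low and 101, 114 and 100.2 in EGFR-high cells with DMSO. With vorinostat it was at 61.3, 60.4 and 56.2 against 96.4, 116.5 and 114. All 6 EGFR-low libraries lay below all 6 EGFR-high ones, by -0.73 log2 units with DMSO (SE 0.12, limma adjusted p = 0.00072) and -0.86 with vorinostat (SE 0.12, limma adjusted p = 0.000138). HDAC1 was at 89.5, 86.8 and 71.3 against 99.6, 91.1 and 92.9 FPKM with DMSO, where the groups lay just apart without passing (-0.20, interval -0.49 to 0.093, limma adjusted p = 0.231) and overlapped with vorinostat, with a difference of -0.0070 (-0.30 to 0.29, limma adjusted p = 0.968). With DMSO, HDAC1 did pass in 1 of 18 alternatives, as lower in EGFR-low cells (limma adjusted p = 0.0274). HDAC3 was modestly higher, at 30.7, 38.2 and 32.3 against 26.6, 27.2 and 27.9 FPKM with DMSO (0.29, SE 0.11, limma adjusted p = 0.0389) and 34.6, 37.1 and 35.7 against 24.6, 28.3 and 25.8 with vorinostat (0.43, SE 0.11, limma adjusted p = 0.00452). With DMSO the HDAC3 call was lost in 8 of 18 alternatives, among them leaving out any 1 library but EGFR-low replicate 1 (0.20 to 0.32).

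Class II enzymes made up 3 of the 8 increases with DMSO. HDAC9 stood at 26.7, 14.6 and 17.1 FPKM in EGFR-low and 9.72, 4.96 and 9.04 in EGFR-high cells with DMSO, and at 34.0, 15.7 and 17.7 against 12.7, 4.46 and 7.13 with vorinostat. Every EGFR-low library was above every EGFR-high one in both conditions. The differences were 1.20 (SE 0.38, limma adjusted p = 0.0199) and 1.39 (SE 0.38, limma adjusted p = 0.00806), the opposite sign to the untreated EGFR-low minus EGFR-high value of -0.31, which did not pass. HDAC5 had 14.1, 13.0 and 12.2 against 11.1, 5.26 and 8.42 FPKM with DMSO, a difference of 0.65 (SE 0.21, limma adjusted p = 0.0211), and with vorinostat the difference was 0.71. With DMSO the HDAC5 difference was 0.40 without EGFR-high replicate 2 and no longer passed, nor did it without EGFR-low replicate 1 or 2, and the call was lost in 7 of 18 alternatives. HDAC9 with DMSO did not pass without EGFR-low replicate 1 (0.96) or EGFR-high replicate 2 (0.94). The sole class IIb enzyme to pass, HDAC6, was at 21.8, 27.6 and 20.3 against 14.1, 14.2 and 15.6 FPKM with DMSO (0.62, SE 0.16, limma adjusted p = 0.00672). With vorinostat HDAC6 had 22.1, 27.3 and 22.4 against 10.2, 15.1 and 12.7 FPKM (0.88, SE 0.16, limma adjusted p = 0.000591). HDAC4 did not pass, with -0.13 (interval -0.56 to 0.29) and -0.038 (-0.46 to 0.39). HDAC7 passed with vorinostat alone, at -0.71, though its groups overlapped and the difference between conditions was not significant (adjusted p = 0.999 in limma, for every member). HDAC7 did not pass without EGFR-low replicate 1 (-0.49) or EGFR-high replicate 2 or 3. HDAC10 and HDAC11 did not pass.

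The sirtuins split. SIRT3, the main mitochondrial deacetylase, was at 10.5, 13.4 and 12.9 FPKM in EGFR-low and 6.22, 5.86 and 7.36 in EGFR-high cells with DMSO, and at 9.83, 11.6 and 13.9 against 4.75, 5.47 and 5.69 with vorinostat. It was higher in 6 of 6 EGFR-low libraries, by 0.82 (SE 0.15, limma adjusted p = 0.00111) and 1.01 (SE 0.15, limma adjusted p = 0.000185). SIRT6, a nuclear sirtuin at telomeres and sites of DNA damage, was at 9.92, 11.0 and 10.8 against 6.43, 5.78 and 7.29 FPKM with DMSO (0.63, SE 0.18, limma adjusted p = 0.0126) and higher by 0.82 with vorinostat. SIRT5, a mitochondrial enzyme that removes succinyl and malonyl groups, was lower with DMSO (-0.59, limma adjusted p = 0.0329), and the nucleolar SIRT7 was higher with vorinostat (0.39, limma adjusted p = 0.0312). SIRT7 lost its call in 10 of 18 alternatives, among them leaving out any 1 library but EGFR-high replicate 1 (0.27 to 0.42). SIRT5 lost it in 7, among them any 1 library but EGFR-high replicate 3 (-0.62 to -0.50), and SIRT6 with DMSO without EGFR-high replicate 2 (0.56). SIRT1 and SIRT2 did not pass in either condition.

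Of the 10 acetyltransferases, HAT1 was lower and KAT6A higher in EGFR-low cells in both conditions, and the general coactivators EP300 and CREBBP did not pass. HAT1 was at 65.0, 57.2 and 44.2 FPKM in EGFR-low against 111, 106 and 100 in EGFR-high cells with DMSO, and 45.6, 55.1 and 47.4 against 62.3, 118 and 106.5 with vorinostat. The differences were -0.93 (SE 0.21, limma adjusted p = 0.00369) and -0.89 (SE 0.21, limma adjusted p = 0.00372). KAT6A, which acetylates histone H3 in the MOZ complex, was at 14.5, 17.5 and 14.7 against 5.44, 7.57 and 10.7 FPKM with DMSO. Its difference was 0.93 (SE 0.22, limma adjusted p = 0.0041) with DMSO and 0.81 (SE 0.22, limma adjusted p = 0.00731) with vorinostat, without overlap. Its paralogue KAT6B was at 6.17, 5.81 and 6.15 against 6.04, 6.18 and 6.26 FPKM with DMSO. KAT2A, an enzyme of SAGA, passed with vorinostat (0.68, limma adjusted p = 0.0041). For EP300 the vorinostat difference was -0.40 (limma adjusted p = 0.0588), and it passed under median-of-ratios scaling (-0.57). Neither BET reader passed, BRD2 at 0.032 and 0.094 and BRD3 at 0.43 and 0.33.

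Corepressor subunits made up 4 of the 7 decreases in each condition. SIN3B, a scaffold of the SIN3 complex, was at 8.69, 6.59 and 7.82 FPKM in EGFR-low and 18.4, 18.1 and 14.3 in EGFR-high cells with DMSO, and 7.57, 6.97 and 7.38 against 23.9, 17.0 and 15.4 with vorinostat. Its difference of -1.04 (SE 0.17, limma adjusted p = 0.000555) was the lowest of the 39 members with DMSO, and with vorinostat it was -1.23 (SE 0.17, limma adjusted p = 0.000104). The other scaffold, SIN3A, was at 21.8, 24.0 and 21.3 against 19.6, 21.1 and 22.0 FPKM with DMSO and did not pass (0.093, interval -0.20 to 0.39). CHD4 was at 45.2, 44.8 and 42.1 against 65.9, 72.8 and 68.4 FPKM with DMSO and 33.3, 42.9 and 41.9 against 86.0, 81.0 and 116 with vorinostat. All EGFR-low libraries were below all EGFR-high ones, by -0.64 (SE 0.14, limma adjusted p = 0.00332) and -1.23 (SE 0.14, limma adjusted p = 4.93e-05).

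Of the MTA subunits of NuRD, which are known to exclude one another within a complex, MTA1 and MTA3 were lower in EGFR-low cells and MTA2 did not pass. MTA1 was at 26.4, 20.2 and 22.2 FPKM in EGFR-low against 38.0, 40.2 and 36.1 in EGFR-high cells with DMSO (-0.72, SE 0.13, limma adjusted p = 0.000983), with -0.75 in vorinostat. MTA3 was at 26.4, 25.6 and 24.2 against 41.4, 42.2 and 37.3 with DMSO (-0.65, SE 0.23, limma adjusted p = 0.033) and at 15.0, 21.9 and 20.7 against 24.3, 45.3 and 50.0 with vorinostat (-0.97, SE 0.23, limma adjusted p = 0.00335). With DMSO the MTA3 call was lost without any 1 library but EGFR-high replicate 3 (-0.67 to -0.61). MTA2 was near equal, with differences of -0.059 (-0.41 to 0.30) and -0.077 (-0.43 to 0.28). NCOR1, the platform for HDAC3, was the sole subunit to be higher, at 26.7, 26.6 and 28.4 against 14.7, 18.7 and 19.8 FPKM with DMSO (0.60, limma adjusted p = 0.0214) and by 0.78 with vorinostat. NCOR1 with DMSO did not pass without EGFR-low replicate 2 or 3 or EGFR-high replicate 1 (0.48 to 0.62). RCOR1, RBBP4 and RBBP7 did not pass. HDAC1, NCOR1 and RBBP4 have 2, 3 and 6 pseudogenes annotated under their names, and how reads shared with them were counted is not given in the sources used here.

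**Figure D3:**
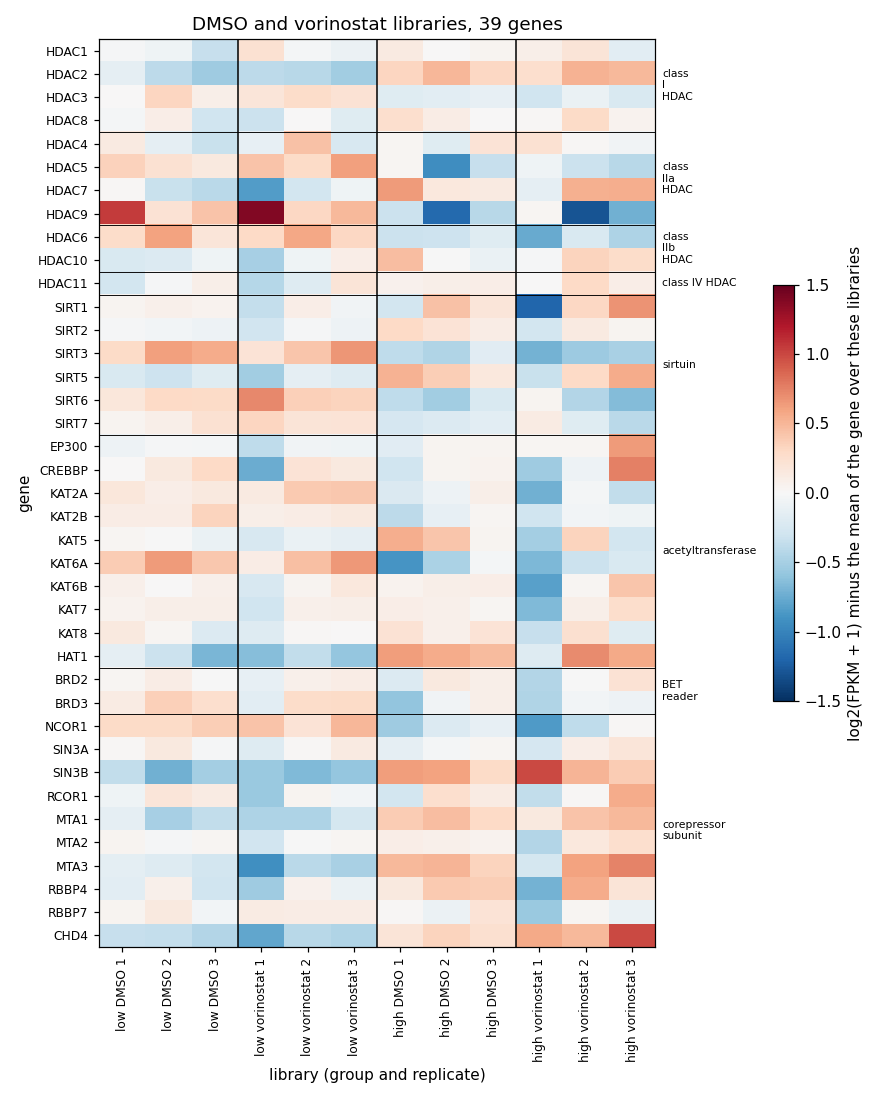
Log2(FPKM + 1) minus the gene's mean over the 12 libraries of the drug experiment, for the 39 members tested, ordered by role. EGFR-low and EGFR-high libraries split for SIN3B, CHD4, MTA1, KAT6A, HDAC2 and SIRT3, among others. DMSO and vorinostat libraries of a line look alike, and vorinostat replicate 1 is low for many genes in both lines.

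The differences between the lines were present without the libraries that stood apart. Without EGFR-low DMSO replicate 1 and EGFR-high DMSO replicate 3, 13 members passed with DMSO, beside 49.5% of all genes. Of these 13, 11 were among the 15, and HDAC5, HDAC9, MTA3 and SIRT5 did not pass. Without these and vorinostat replicate 1 of both lines, 20 passed, 14 of them among the 15, beside 63.3% of all genes. With vorinostat, 18 passed without vorinostat replicate 1 of both lines, all 17 among them, beside 60.5% of all genes. Of single libraries, EGFR-high DMSO replicate 2 moved the DMSO count most, to 9 when left out (SIN3B, HAT1, HDAC2, MTA1, CHD4, SIRT3, KAT6A, HDAC6 and NCOR1). Without it 41.2% of all genes passed.

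Paralogues among the members were set side by side as log2 ratios of their FPKM, in 9 pairs chosen after their values had been seen. A ratio within a library shows unequal change and does not depend on the scaling of that library. The lines were apart in all 9 ratios with DMSO (4 higher and 5 lower in EGFR-low cells), in 6 with vorinostat and in 1 in untreated cells. Of single genes 69.3%, 60.8% and 20.6% were apart in these comparisons, no such share was computed for ratios, and the choice of pairs makes the counts a description. Without the libraries that stood apart, which leaves 2 a group, all 9 were apart with DMSO, all 9 with vorinostat and 3 in untreated cells. An exact permutation test of 3 libraries against 3 cannot go below 0.1, and the adjusted values over the 9 pairs were 0.1 with DMSO and 0.15 with vorinostat for pairs apart. Because the pairs were picked from the same values, these p-values describe the pairs and do not test them.

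SIN3A over SIN3B gave the widest gap with DMSO, at 1.32, 1.87 and 1.45 in EGFR-low against 0.094, 0.22 and 0.62 in EGFR-high cells. With vorinostat the means were 1.55 ± 0.21 and 0.24 ± 0.57 (SD, n = 3), and in untreated cells 0.19 ± 0.081 and 0.061 ± 0.044, which overlapped. HDAC1 over HDAC2 was 0.28, 0.50 and 0.36 in EGFR-low against -0.025, -0.33 and -0.11 in EGFR-high cells with DMSO, so that HDAC1 RNA exceeded HDAC2 RNA in the first and not in the second. With vorinostat the gap was 0.87, and in untreated cells the groups overlapped, at -0.46 ± 0.21 and -0.13 ± 0.52. MTA1 over MTA2 was the one ratio apart in all 3 conditions, by -0.30 in untreated cells (adjusted exact permutation p = 0.643), -0.68 with DMSO and -0.70 with vorinostat. HDAC6 over HDAC10 (0.99 and 1.35) and KAT6A over KAT6B (1.06 and 0.73) were higher in EGFR-low cells in both conditions of the drug experiment.

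The untreated and DMSO comparisons of the same lines share no libraries, and their differences had the same sign for 13 of 38 members (34.2%), against 53.2% of 11118 genes. The untreated experiment had less precision, with a median SE of 0.33 over the members against 0.17. The EGFR-low libraries with DMSO correlated with the untreated EGFR-low libraries at 0.882 to 0.936 over genes, and with untreated EGFR-high libraries at 0.891 to 0.94. They were thus no closer to their own untreated line than to the other. The EGFR-high DMSO libraries correlated with untreated EGFR-low libraries at 0.945 to 0.973, and with their own untreated line at 0.962 to 0.984. These tables were normalized separately, and what part this has in the members' differences was not tested.

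Between the libraries labelled vorinostat and those labelled DMSO, no member passed in either line. This count depends on the treatment labels, which CDKN1A and H1F0 did not bear out. Against DMSO, 0 of 39 members passed in EGFR-low cells and 0 in EGFR-high cells (limma, adjusted), and 0% of all genes did in each. At an unadjusted p of 0.05 the counts were 0 members and 115 genes in EGFR-low cells, and 2 members and 409 genes in EGFR-high cells. Groups were apart for 3 members in EGFR-low cells (SIRT6 higher, KAT5 and MTA3 lower), beside 9.46% of all genes, and for 2 in EGFR-high cells (CHD4 higher, SIRT3 lower), beside 5.33%. The counts were 0 members in each line also without the libraries that stood apart. The differences ran from -0.40 (MTA3) to 0.22 (SIRT6) in EGFR-low and from -0.49 (KAT5) to 0.43 (CHD4) in EGFR-high cells, and the 95% intervals of all members lay between -0.99 and 0.99 in EGFR-low and between -1.01 and 0.81 in EGFR-high cells.

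For the 5 HDACs followed throughout, the differences between vorinostat and DMSO were small. In EGFR-low cells its difference from DMSO was 0.17 for HDAC1 (interval -0.12 to 0.47), -0.090 for HDAC2 (-0.36 to 0.18), 0.089 for HDAC3 (-0.15 to 0.32), 0.14 for HDAC4 (-0.28 to 0.56) and 0.045 for HDAC6 (-0.30 to 0.39). In EGFR-high cells it was -0.018 (-0.31 to 0.27), 0.047 (-0.23 to 0.32), -0.054 (-0.29 to 0.18), 0.045 (-0.38 to 0.47) and -0.21 (-0.56 to 0.13) in the same order. The widest of these intervals reached 0.56 log2 units. CHD4 in EGFR-high cells was at 86.0, 81.0 and 116 FPKM with vorinostat against 65.9, 72.8 and 68.4 with DMSO (unadjusted p = 0.0118, limma adjusted p = 0.94). The drug response differed between the lines for none of the 39 members and for 0% of all genes, and the lowest unadjusted p belonged to CHD4 (-0.59, SE 0.20, limma adjusted p = 0.999).

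Vorinostat replicate 1 was the low library for many members. It was the lowest of the 6 libraries of its line for 23 of 39 members in EGFR-low cells (59%, against 37.3% of all genes) and for 25 in EGFR-high cells (64.1%, against 43.2%). SIRT1 in EGFR-high cells, for example, was at 2.28 FPKM in that library and at 5.15 to 10.9 in the other 5. SIRT6, SIRT7 and HDAC9 went the other way and were highest there in both lines.

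The other subunits of these complexes formed a list of 89 genes. Of 87 tested in untreated cells, 1 passed between EGFR-low and EGFR-high cells, MLLT3, a reader of acetylated and crotonylated lysines. It was at 11.3, 13.7 and 8.51 FPKM in EGFR-low against 4.99, 4.83 and 5.52 in EGFR-high cells (0.97, SE 0.23, limma adjusted p = 0.0381) and was higher with DMSO (0.97) and vorinostat (0.94) too. Without replicate 2 of the untreated groups MLLT3 did not pass (0.79, limma adjusted p = 0.103). In the drug experiment 33 of 88 passed with DMSO (19 higher and 14 lower in EGFR-low cells) and 38 with vorinostat (23 and 15), or 37.5% and 43.2%, below the shares of all genes. Vorinostat against DMSO gave 0 of 88 in either line.

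Several partners of the members differed between the lines by over 1 log2 unit. KDM1A, the lysine demethylase that pairs with RCOR1 and HDAC1 or HDAC2 in CoREST, averaged 49.3 ± 16.8 FPKM in EGFR-low and 142 ± 10.3 in EGFR-high cells with DMSO (SD, n = 3, log2 difference -1.55, limma adjusted p = 0.000327). TBL1X, a subunit of the NCoR complex, was at 37.5 ± 5.59 against 12.4 ± 3.94 FPKM (1.55, limma adjusted p = 0.000327). In NuRD, CHD3, named after its values had been seen, was higher at 84.9 ± 16.0 against 37.0 ± 7.59 FPKM (1.18, limma adjusted p = 0.0145), opposite to its paralogue CHD4. With vorinostat these differences were -1.93, 2.09 and 1.09 in the same order, and CHD3 then overlapped between the lines. Without the 4 libraries of the drug experiment that stood apart they were -1.87, 1.90 and 1.49 with DMSO and -1.90, 2.04 and 1.15 with vorinostat, and all passed.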

How the data were processed

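Polyadenylated RNA was sequenced in 21 PC-9 libraries. The deposited values were taken as FPKM, made by the authors with Cufflinks 2.2.1, and STAR 2.5.1b and the build hg19 are among the names in the submitters' processing notes. The unit is inferred from the values, since the naming also calls them counts. An experiment's genes that reached 1 FPKM in 3 or more of its libraries were tested on log2(FPKM + 1) with limma 3.58.1 (R 4.3.3, mean-variance trend, Benjamini-Hochberg per comparison). Each experiment was fitted separately with all its groups and no replicate block, and the tests were checked on simulated data. The members, lists and naming rule were chosen with earlier results of these data known. Full statistics went to the 5 members with the largest called difference per direction and to HDAC1, HDAC2, HDAC3, HDAC4 and HDAC6, and other genes were named up to 3 per direction. Statistics were also given outside this rule, for members picked from their results. Examples are SIRT2, MTA3 and HDAC9 in untreated cells and CHD4 for vorinostat against DMSO. A gene that this rule named is not reported here.

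Libraries with the same number deviated together from their groups, with a correlation above 0.1 in every pair, in the untreated comparison of the sorted lines (0.343, 0.73 and 0.689), between the lines with vorinostat (0.353, 0.351 and 0.163) and between vorinostat and DMSO in EGFR-low cells (0.267, 0.302 and 0.329). The main fit did not use this pairing, which entered only through the alternative with the replicate block. With that block these comparisons gave 0, 19 and 0 members, beside 8.54%, 62.4% and 0% of all genes. Alternatives were other pseudocounts, no filter, other scalings, only the compared groups, the replicate block and leaving out each library. Removing the trend with GC content and length, and leaving out libraries that stood apart, were chosen after seeing the data.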

Additional observations from a re-analysis of the deposited data

Results flagged for a closer look

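HDAC8 was higher in every EGFR-low library than in every EGFR-high library in untreated cells (log2 difference 0.28) and lower in every one with vorinostat (-0.29). It stood at 18.9, 17.6 and 22.6 FPKM against 14.5, 17.4 and 16.0 in the first and at 11.6, 14.9 and 13.0 against 15.0, 18.3 and 15.4 in the second. SIRT2 was higher in every untreated EGFR-low library (0.76) and lower in every one with DMSO (-0.25), where it was at 8.88, 8.72 and 8.51 against 11.3, 10.5 and 9.80 FPKM. Neither difference between experiments was tested, since the tables were normalized separately, and none of these 4 values passed the adjusted threshold in limma.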

How the results depend on the processing

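Removing the trend with GC content and length gave 1 member called between the untreated sorted lines, and with the replicate block as well 5, all higher (HDAC10, HDAC11, NCOR1, SIRT2 and SIRT5). Of all genes 8.43% and 22.6% passed. Against parental cells, EGFR-low had 1 call with the replicate block (HDAC9), 9 with the block and that trend removed, and 3 without replicate 2 of all 3 untreated groups. These stand beside 4.64%, 20.6% and 8.22% of all genes. Leaving out 1 library gave 0 to 1 calls in EGFR-low against parental cells (0.593 to 2.23% of all genes) and 9 to 16 with DMSO (40.3 to 50.6%). The replicate block gave 17 members with DMSO and 19 with vorinostat, beside 55.5% and 62.4% of all genes, and ended no call in either. With DMSO, SIN3B, HAT1, HDAC2, MTA1, CHD4, SIRT3, KAT6A and HDAC6 passed under all 18 alternatives, while HDAC3 lost its call in 8, HDAC5, MTA3 and SIRT5 in 7, SIRT6 in 4 and HDAC9 and NCOR1 in 3. With vorinostat SIRT7 lost it in 10, HDAC7 in 4 and HDAC5 in 1.

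Sign changes were followed for members that had passed and, in some comparisons, for HDAC1, HDAC2, HDAC3, HDAC4 and HDAC6. Among these, only values near 0 that had not passed changed sign, and other members were not followed. With the GC and length trend removed, with or without the block, HDAC6 was 0.053 in untreated cells (0.20 without replicate 2 of all 3 groups), and for vorinostat in EGFR-high cells HDAC1 was 0.067, HDAC3 0.026 and HDAC4 -0.0024. There, median-of-ratios scaling gave 0.039 for HDAC1 and 0.0013 for HDAC3, quantile normalization 0.044 for HDAC1, all 4 libraries apart left out 0.0063 for HDAC3, and the 2 vorinostat libraries left out -0.037 for HDAC4. Without the 2 DMSO libraries HDAC2 was 0.021 for vorinostat in EGFR-low cells. Leaving out 1 library gave, in untreated cells, -0.069 to 0.15 for HDAC1, -0.29 to 0.39 for HDAC4 and -0.27 to 0.36 for HDAC6. For vorinostat in EGFR-low cells it gave -0.18 to 0.021 for HDAC2, -0.066 to 0.27 for HDAC4 and -0.048 to 0.17 for HDAC6, and in EGFR-high cells -0.096 to 0.085 for HDAC1, -0.0031 to 0.13 for HDAC2 and -0.054 to 0.14 for HDAC4. The causes were not tested. Depth is unknown, and 3 libraries a group limit the precision.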
